A study of Mus musculus with 6 samples.

Results

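Keratin-associated proteins fill the space between the keratin filaments of the hair shaft, and the mouse genome encodes them in the large Krtap gene family. All array probes whose gene name begins with Krtap were taken, which gave 47 probes for 43 genes out of 27343 gene or transcript names and 41174 probes in all. The family was chosen because its signals differed between the groups compared here, so the differences between imiquimod and vehicle below are a description of the chosen probes and carry no p-value. Skin of the back, taken whole from female C57BL/6J mice aged 6 to 8 weeks, was profiled on 6 single-colour Agilent arrays. The imiquimod group (3 samples) received 62.5 mg of 5% imiquimod cream on the shaved back each day for 7 days, and the vehicle group (3 samples) received the same amount of vehicle cream on the same schedule. Imiquimod is an agonist of Toll-like receptor 7 whose repeated application gives mice a psoriasis-like skin inflammation. All mice were shaved and carried no engineered allele named in the labels. The labels do not state whether the samples of a group came from separate mice, so the spread between samples may be partly technical.

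The array files and their sample records carried opposite treatments. Each scanner file matched the value table column of 1 sample at a Spearman correlation above 0.999 over 24253 probes, and the treatment word in its name was that of the sample's title in 6 of 6 files. The record under which the file had been filed carried the other treatment in 6 of 6 files. The arrays were therefore grouped by the value table column they matched, and under the filing every sign given below turns round. Between 61.6% and 67.8% of the non-control spots on an array were well above background, which is the extraction software's own call. The array of imiquimod 1 shared a slide with the 3 vehicle arrays, and imiquimod 2 and 3 lay on another slide. The software marked the vehicle 2 and vehicle 3 arrays for evaluation, and their negative controls averaged 40.9 and 45.2 units of net signal, against 31.7 to 37.6 on the others.

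Hair is made by the follicle during its growth phase, when cells of the matrix at the follicle's base divide, move upwards and harden. Keratins are made first in the cortex and cuticle cells of the new shaft, and the keratin-associated proteins follow and bind the filaments into a stiff composite, largely through disulfide bonds. They are grouped by composition into high sulfur, ultra-high sulfur and high glycine-tyrosine proteins, and most are encoded by small genes with a single exon that lie in clusters. On the array, 23 probes for 21 genes lay within 897 kb of chromosome 16 (mm9, chr16:88611474-89508568), the cluster that holds all of the high glycine-tyrosine genes measured here. A further 17 probes for 15 genes lay within 443 kb of chromosome 11 (mm9, chr11:99411699-99854715), inside the locus of the type I keratins. The 4 genes of the Krtap5 family lay on chromosome 7, the 2 genes of the Krtap28 family on chromosome 1 and Krtap12-1 on chromosome 10.

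The probes are 60 bases long, and some of those whose values are described below are shown here. Cysteine is encoded by TGC and TGT, called cysteine triplets below, which are in capitals in the frame of the probe that holds most of them. Whether that frame is the coding frame, or the probe lies in coding sequence, was not tested. The probes of Krtap5-4 and Krtap4-6, both ultra-high sulfur genes, and the 3 probes of the high sulfur gene Krtap3-1 read as follows, each named with its mm9 position (minus strand except for Krtap5-4).
Krtap5-4 chr7:149489728-149489787: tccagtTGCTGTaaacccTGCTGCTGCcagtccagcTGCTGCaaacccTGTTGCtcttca
Krtap4-6 chr11:99526996-99527055: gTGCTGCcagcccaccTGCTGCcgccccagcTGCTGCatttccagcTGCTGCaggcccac
Krtap3-1 chr11:99427397-99427456: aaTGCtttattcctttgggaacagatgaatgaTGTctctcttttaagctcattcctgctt
Krtap3-1 chr11:99427481-99427540: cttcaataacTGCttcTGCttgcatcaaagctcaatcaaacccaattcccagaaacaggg
Krtap3-1 chr11:99427602-99427661: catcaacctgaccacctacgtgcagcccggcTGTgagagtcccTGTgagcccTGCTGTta
For Krtap19-1, a high glycine-tyrosine gene, the capitals mark the 13 bases that its 2 probes (mm9, minus strand) share.
Krtap19-1 chr16:88869384-88869443: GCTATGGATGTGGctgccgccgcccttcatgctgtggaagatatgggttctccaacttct
Krtap19-1 chr16:88869431-88869490: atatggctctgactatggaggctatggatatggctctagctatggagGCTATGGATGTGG
At least 4 cysteine triplets in 1 frame were found in 9 of the 47 Krtap probes (19.1%), against 2.45% of all 60-base probes on the array. The 9 included 5 of the 12 ultra-high sulfur probes, 2 of 14 high sulfur probes, 1 of 17 high glycine-tyrosine probes and 1 of 4 probes of families left unclassed.

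Signals are given as the log2 processed signal minus the array's 75th percentile, so that 0 is that percentile on each array, and differences are imiquimod minus vehicle. The median over the 47 Krtap probes was -6.84, -7.47 and -7.30 on the imiquimod 1, 2 and 3 arrays, against 3.08, 5.69 and -1.50 on the vehicle 1, 2 and 3 arrays. Vehicle 3 was thus far below the other vehicle arrays and still far above every imiquimod array. Summed on a linear scale, the probes reached 67 to 75 times the 75th percentile on the imiquimod arrays and 79.2 to 4540 times on the vehicle arrays, where the lowest value belonged to vehicle 3. Most of the imiquimod sum came from the Krtap4-6 probe described below. In bulk skin, fewer cells of a type and less RNA per cell cannot be told apart.

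Every Krtap probe had a lower mean in imiquimod skin (47 of 47), with a median difference of -8.49 and a range of -12.17 to -0.10. On the same scale, the median difference over all 41115 probes was 0.059. The 47 include Krtap20-2 and Krtap13, which were well above background on no array and whose values have no order. At 35 of the 47, no imiquimod array was well above background. The Krtap median and the class medians below therefore rest mostly on imiquimod readings too dim to measure, and the bounds below are the sizes that can be stated. The imiquimod arrays lay below every vehicle array for 43 of 47 Krtap probes, against 16.2% of all probes, and 40 of the 43 were well above background on all 3 vehicle arrays. The probes at which they overlapped were those of Krtap4-6, Krtap19-2, Krtap20-2 and Krtap13. The fit covered 41 Krtap probes, all of which passed the filter on dim signal through the 3 vehicle arrays. Of these, 32 were lower and 0 higher in imiquimod at a limma adjusted p under 0.05, against 9.72% and 11.4% of all probes tested, and since this contrast chose the family nothing is read from those counts. The count fell to 14 without imiquimod 1, to 14 without imiquimod 2, to 14 without imiquimod 3 and to 11 without vehicle 1, and was 39 without vehicle 3. In the same order, the shares of all tested probes called lower were 3.91%, 4.31%, 4.5%, 3.67% and 9.78%. With slide as a block the count was 2 of 41, beside 2.63% of all tested probes. That fit takes its difference from imiquimod 1 against the 3 vehicle arrays, since the other slide held no vehicle array. Within slide 1, where 1 imiquimod array faced 3 vehicle arrays, the difference was negative for 45 of the 47 probes, with a median of -8.31.

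**Figure D1:**
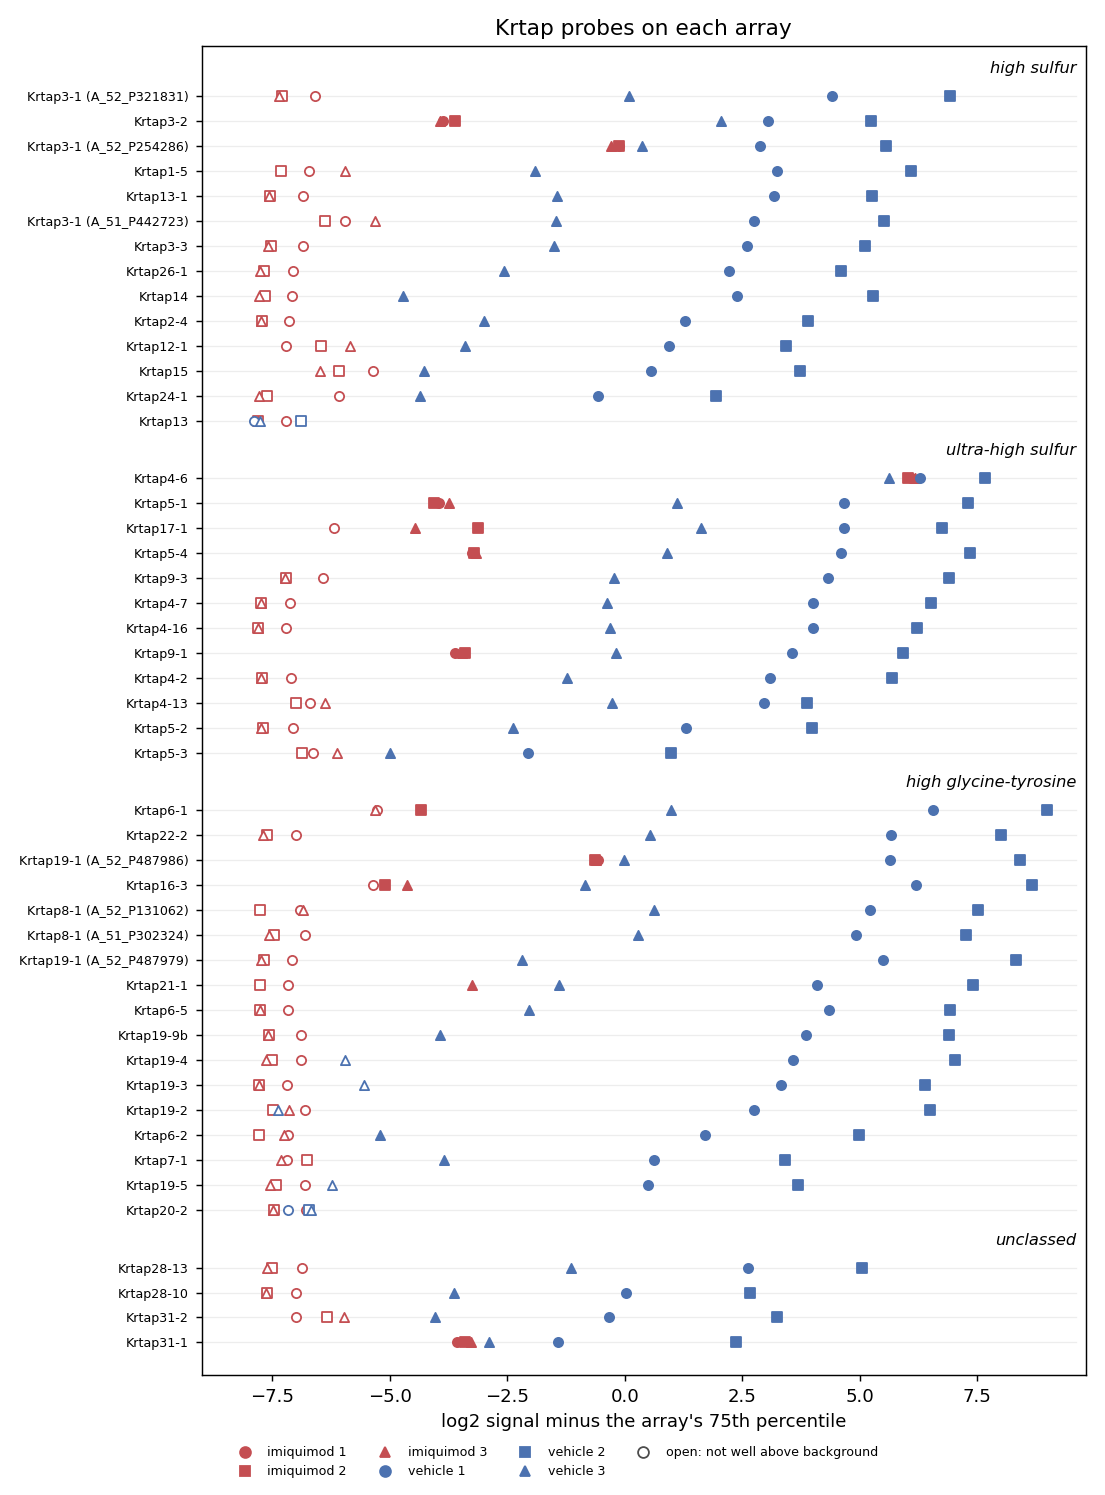
Signal of each of the 47 Krtap probes on each array, as log2 signal minus the array's 75th percentile, with imiquimod arrays in red and vehicle arrays in blue, a marker shape for each replicate, open symbols where a probe was not well above background, and probes grouped by class. The imiquimod symbols sit at the left, mostly open, and the vehicle symbols at the right with vehicle 3 lowest and vehicle 2 highest, and the groups overlap at Krtap4-6, Krtap13, Krtap19-2 and Krtap20-2.

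Most members gave no measurable signal after imiquimod. No imiquimod array gave a signal well above background at 35 of the 47 probes, and 29 of these were well above background on all 3 vehicle arrays, a pattern found at 0.98% of all probes. A further 4 of the 35, for Krtap19-2, Krtap19-3, Krtap19-4 and Krtap19-5, were well above background on 2 vehicle arrays only, and 2 on no array. For such probes only a lower bound can be given: the vehicle mean over, on each imiquimod array, the probe's own signal or, where that is lower, the dimmest signal that any probe well above background gave there. The bounds ran from at least 9.47-fold to at least 1024-fold lower in imiquimod, with a median of 162-fold over the 33 probes detected in vehicle skin. They move with the vehicle samples: the median bound was 37.3-fold without vehicle 2, 107.5-fold without vehicle 1 and 655-fold without vehicle 3, and the highest bound, that of Krtap22-2, was 330-fold without vehicle 2. At the 4 Krtap19 probes not well above background in vehicle 3, the vehicle mean holds an unmeasured reading, so theirs are not strict lower bounds. Only 8 probes were well above background on all 6 arrays, and the remaining 4, for Krtap6-1, Krtap16-3, Krtap17-1 and Krtap21-1, on 1 or 2 imiquimod arrays. Fold values below are the vehicle mean over the imiquimod mean, and they too depend on vehicle 2 and vehicle 3.

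The high glycine-tyrosine proteins are small and rich in aromatic residues, and in sheep wool they vary more between fibres than the other classes. The class had 17 probes for 15 genes, with a median difference of -9.42. Krtap22-2 stood at -7.00, -7.60 and -7.70 on the imiquimod arrays, all not well above background, against 5.65, 8.00 and 0.54 on the vehicle arrays. The lowest vehicle array was at least 5.41 log2 units above the imiquimod arrays when their floor is used, and the gene was at least 1024-fold lower in imiquimod. Krtap8-1, a member of the family known from sheep and human hair cortex, was read by 2 probes. The first gave -6.91, -7.75 and -6.85 on the imiquimod arrays against 5.22, 7.51 and 0.61 on the vehicle arrays, and was at least 839-fold lower. The second gave -6.80, -7.45 and -7.58 on the imiquimod arrays against 4.92, 7.26 and 0.28 on the vehicle arrays, and was at least 687-fold lower. Neither probe of Krtap8-1 was well above background on any imiquimod array, and the groups did not overlap.

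In 3 high glycine-tyrosine genes, picked out after their values were seen, a low signal remained in some imiquimod samples. Krtap6-1 read -5.26, -4.34 and -5.31 on the imiquimod arrays, with imiquimod 2 alone well above background, against 6.55, 8.98 and 0.99 on the vehicle arrays. Its probe shares a run of 45 bases with a probe of the predicted gene Gm10229, so its signal may be shared with that gene. Krtap21-1 read -7.15, -7.76 and -3.26 on the imiquimod arrays, where imiquimod 3 alone was well above background, against 4.09, 7.40 and -1.39 on the vehicle arrays. Krtap16-3 read -5.36, -5.09 and -4.62 on the imiquimod arrays, the last 2 of them well above background, against 6.19, 8.66 and -0.84 on the vehicle arrays. At all 3 genes the highest imiquimod array stayed below the lowest vehicle array.

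Several Krtap19 genes were near or below background in vehicle 3 as well, and they too were picked out after their values were seen. Krtap19-4 read -6.89, -7.50 and -7.63 on the imiquimod arrays against 3.58, 7.02 and -5.96 on the vehicle arrays. It was not well above background on the vehicle 3 array, so vehicle 3 and the imiquimod arrays have no order there. Krtap19-2, named Krtap16-1 in the array's design, read -6.80, -7.49 and -7.14 on the imiquimod arrays against 2.75, 6.49 and -7.37 on the vehicle arrays, and it too was not well above background in vehicle 3. Krtap19-3 and Krtap19-5 were likewise not well above background on the vehicle 3 array. Krtap19-9b, in contrast, read -6.88, -7.56 and -7.59 on the imiquimod arrays against 3.84, 6.90 and -3.94 on the vehicle arrays, all 3 of the vehicle values well above background. These genes lie in the chromosome 16 cluster.

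The high sulfur proteins, 14 probes for 12 genes, had a median difference of -8.21. Krtap3-2, of a family known from the cortex of human hair, was well above background on all 6 arrays. It stood at -3.86, -3.61 and -3.94 on the imiquimod arrays against 3.05, 5.24 and 2.05 on the vehicle arrays. The difference was -7.25 ± 0.77 (moderated SE of the limma fit, as for every SE below, n = 3 each). This was a fold of 152 (81.9 without vehicle 2, 247 without vehicle 3), and the groups did not overlap. Krtap1-5 read -6.72, -7.32 and -5.94 on the imiquimod arrays against 3.25, 6.10 and -1.90 on the vehicle arrays, at least 215-fold lower. Krtap13-1 read -6.85, -7.54 and -7.56 on the imiquimod arrays against 3.18, 5.26 and -1.45 on the vehicle arrays, at least 194-fold lower. Both were not well above background on any imiquimod array and well above it on all vehicle arrays.

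The ultra-high sulfur proteins have the highest cysteine content of the family, and in human hair the KAP5 proteins are known from the cuticle. The class had 12 probes for 12 genes and a median difference of -8.67. Krtap9-3 read -6.43, -7.20 and -7.23 on the imiquimod arrays against 4.33, 6.90 and -0.22 on the vehicle arrays, at least 490-fold lower. Krtap4-7 was at least 400-fold lower and Krtap4-16 at least 381-fold lower, with imiquimod values of -7.13 to -7.81 for the pair. All of these were not well above background on any imiquimod array. Krtap5-1, Krtap5-4 and Krtap9-1, in contrast, were measured in every sample. Krtap5-1 read -3.96, -4.06 and -3.75 on the imiquimod arrays against 4.65, 7.29 and 1.11 on the vehicle arrays, a difference of -8.27 ± 1.45 and a fold of 309 (112 without vehicle 2, 952 without vehicle 3). Krtap5-4 read -3.25, -3.21 and -3.16 on the imiquimod arrays against 4.59, 7.35 and 0.90 on the vehicle arrays, a difference of -7.49 ± 1.51 and a fold of 180 (62.1 without vehicle 2, 580 without vehicle 3). Krtap9-1 read -3.62, -3.40 and -3.47 on the imiquimod arrays against 3.55, 5.91 and -0.18 on the vehicle arrays, a difference of -6.59 ± 1.43 and a fold of 96.4 (36.3 without vehicle 2, 300 without vehicle 3). In all 3 genes the imiquimod samples lay close together and the vehicle samples spread widely (moderated SE, n = 3 each).

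Krtap4-6 was the exception among the measured members. Its probe read 6.09, 6.02 and 6.18 on the imiquimod arrays against 6.28, 7.66 and 5.63 on the vehicle arrays, and the groups overlapped. The difference was -0.43 ± 0.49 (SE, n = 3 each), and it was 0.14 when vehicle 2 was left out, the only change of sign among the 41 fitted Krtap probes under the alternatives that kept the grouping. The sequence shown above holds 8 cysteine triplets, and the other 4 members of the Krtap4 family, Krtap4-2, Krtap4-7, Krtap4-13 and Krtap4-16, differed by -8.87 to -10.91. The longest run this probe shares with a probe of another gene on the array is 14 bases. Its match to other transcripts was not tested. The vehicle arrays kept the order seen across the family, with vehicle 2 highest and vehicle 3 lowest.

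The 4 probes of the Krtap28 and Krtap31 families had a median difference of -6.57. Krtap28-13 read -6.87, -7.51 and -7.60 on the imiquimod arrays against 2.62, 5.05 and -1.13 on the vehicle arrays, at least 174-fold lower. Krtap28-10 was at least 31-fold lower and Krtap31-2 at least 29.6-fold lower, both likewise not well above background after imiquimod. Krtap31-1 was measured on all 6 arrays, at -3.56, -3.41 and -3.27 on the imiquimod arrays against -1.42, 2.36 and -2.90 on the vehicle arrays. Its difference was -2.76 ± 1.27 (SE, n = 3 each), and vehicle 3, which was well above background, lay only 0.52 above the imiquimod mean.

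At the low end of detection, Krtap20-2 and Krtap13 were not well above background on any of the 6 arrays. Krtap20-2 read -6.78, -7.47 and -7.48 on the imiquimod arrays against -7.17, -6.72 and -6.67 on the vehicle arrays, and Krtap13 read -7.21, -7.81 and -7.79 against -7.88, -6.89 and -7.75. Such values have no order, and no difference was detectable at this signal. Krtap5-3 had the lowest bound of the detected genes, at least 9.47-fold lower, with imiquimod values of -6.63, -6.87 and -6.12 against vehicle values of -2.06, 0.98 and -4.99.

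Of the 3 genes with several probes, Krtap3-1 and Krtap19-1 each had 1 probe that stayed well above background in imiquimod skin while the others did not. The Krtap3-1 probe nearest the low end of the mm9 interval read -6.59, -7.29 and -7.35 on the imiquimod arrays against 4.41, 6.93 and 0.080 on the vehicle arrays, at least 538-fold lower. The middle probe read -5.95, -6.37 and -5.32 on the imiquimod arrays against 2.75, 5.52 and -1.45 on the vehicle arrays, at least 180-fold lower. The third, whose sequence holds 4 cysteine triplets, was well above background everywhere, at -0.11, -0.13 and -0.29 on the imiquimod arrays against 2.88, 5.56 and 0.37 on the vehicle arrays. Its difference was -3.12 ± 1.21 (SE, n = 3 each), so the size of the gene's difference depends on the probe. Krtap19-1 showed the same split: 1 probe read -7.07, -7.66 and -7.74 on the imiquimod arrays against 5.49, 8.33 and -2.19 on the vehicle arrays, at least 566-fold lower. The other, which overlaps it by the 13 bases in capitals above, read -0.58, -0.63 and -0.61 on the imiquimod arrays against 5.65, 8.40 and -0.021 on the vehicle arrays, a difference of -5.28 ± 2.00 (SE, n = 3 each), with vehicle 3 just above the imiquimod arrays. No gene had probes that differed in sign.

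**Figure D2:**
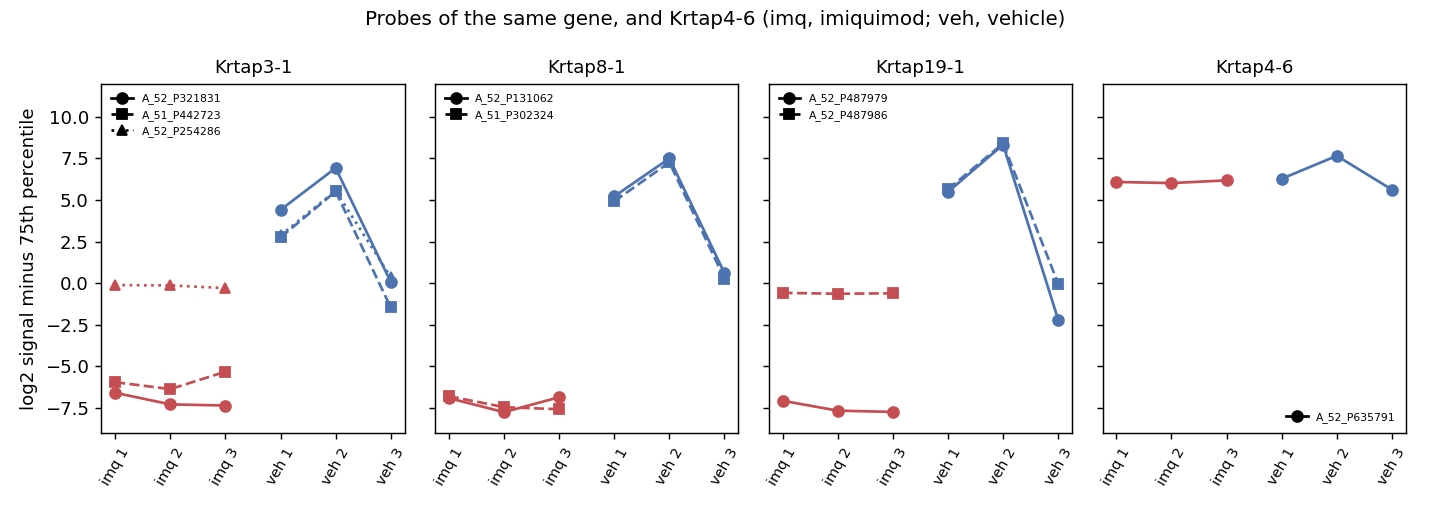
Log2 signal minus the array's 75th percentile on each array (imiquimod in red, vehicle in blue) for each probe of Krtap3-1, Krtap8-1 and Krtap19-1, and for Krtap4-6, with 1 line per probe that links arrays only to guide the eye. Every probe of the 4 genes is highest in vehicle 2, while 1 probe each of Krtap3-1 and Krtap19-1 holds between -0.11 and -0.63 in imiquimod skin and Krtap4-6 reads 5.63 to 7.66 over both groups.

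The sequences of the 8 probes measured on all 6 arrays were compared with the others after their values were seen. At least 4 cysteine triplets in 1 frame were present in 6 of these 8 probes and in 3 of the other 39 Krtap probes, and those of Krtap3-2 and Krtap31-1 lacked them. Their median GC content was 55.8% (range 35% to 70%), against 40% (15% to 56.7%) in the other probes. On the imiquimod arrays these 8 probes had a median SD of 0.11, against 0.15 over all tested probes of the array. Whether their imiquimod signal came from Krtap RNA was not tested.

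The vehicle samples differed widely among themselves at the Krtap probes. All 41 Krtap probes measured on the 3 vehicle arrays had the order vehicle 2 over vehicle 1 over vehicle 3, against 24.2% of all probes measured there. Vehicle 2 exceeded vehicle 1 by a median of 2.57 (0.91 to 3.78), and vehicle 1 exceeded vehicle 3 by a median of 4.33 (0.65 to 7.78). The median SD over the vehicle arrays was 3.49 for these probes and 0.22 for all probes measured there. Against the highest imiquimod signal, or the floor where the probe was well above background on no imiquimod array, vehicle 3 was higher at 38 of the 41 probes, by a median of 2.96 over the 41. The exceptions were Krtap4-6, Krtap5-3 and Krtap6-2. The 3 vehicle arrays shared a slide, and vehicle 2 and 3 were the arrays marked for evaluation. The part of array quality in this spread was not tested.

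By class, the median excess of vehicle 1 over vehicle 3 was 5.62 for the 12 high glycine-tyrosine probes measured on all vehicle arrays (range 4.47 to 7.78), 4.33 for 13 high sulfur probes (1.00 to 7.11), 3.69 for 12 ultra-high sulfur probes (0.65 to 4.55) and 3.68 for the 4 unclassed probes (1.48 to 3.76). The range of the high glycine-tyrosine probes overlapped those of the high sulfur and ultra-high sulfur probes and lay above that of the 4 unclassed probes. Vehicle 2 exceeded vehicle 1 by medians of 2.66, 2.52, 2.54 and 3.099 in the same 4 classes. Since these are single samples of 1 group, the class difference has no replicate check.

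**Figure D3:**
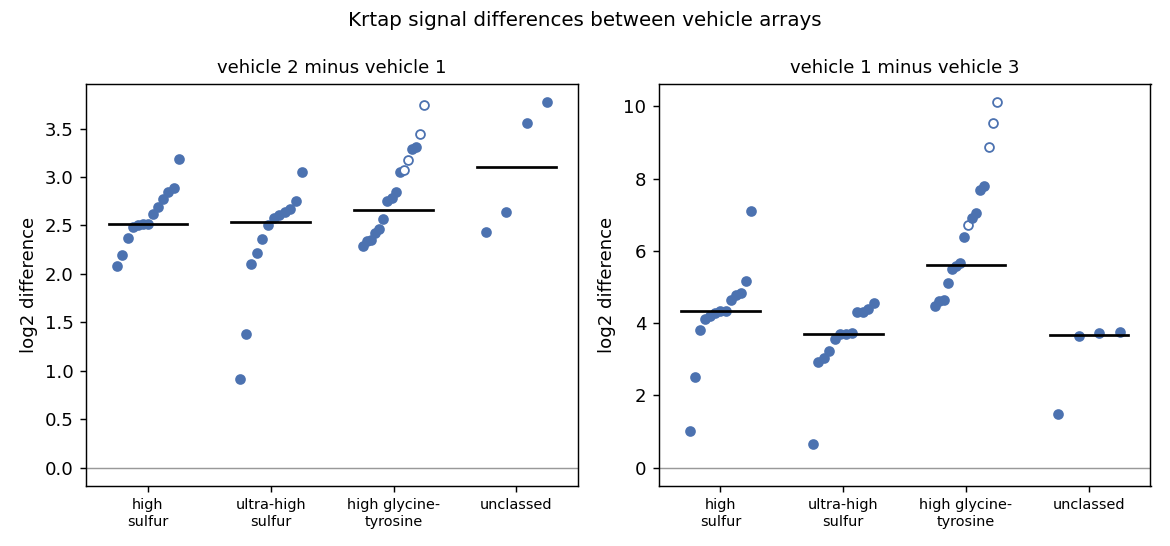
Difference in log2 signal between vehicle arrays for each Krtap probe by class, vehicle 2 minus vehicle 1 in the left panel and vehicle 1 minus vehicle 3 in the right panel, with bars at the medians of filled points and open circles for probes not well above background on the vehicle 3 array. All filled points lie above 0, and in the right panel the high glycine-tyrosine probes have the highest median, 5.62.

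A TATA box is a core promoter element that places the start of transcription a short way downstream. RefSeq windows (GRCm38.p6) from 250 bases before to 50 bases after the gene start were available for 39 of the 43 genes and were searched for TATAAA on both strands. Krtap3-2, Krtap5-1 and Krtap8-1, 1 gene of each class and all on the minus strand, are shown with the motif in capitals.
Krtap3-2 chr11:99556804-99557103: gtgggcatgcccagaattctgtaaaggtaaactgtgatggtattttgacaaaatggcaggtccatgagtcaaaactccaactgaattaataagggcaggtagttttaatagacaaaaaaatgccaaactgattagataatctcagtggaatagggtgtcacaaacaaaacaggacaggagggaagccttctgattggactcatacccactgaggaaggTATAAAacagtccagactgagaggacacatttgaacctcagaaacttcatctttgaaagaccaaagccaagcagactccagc
Krtap5-1 chr7:142297085-142297384: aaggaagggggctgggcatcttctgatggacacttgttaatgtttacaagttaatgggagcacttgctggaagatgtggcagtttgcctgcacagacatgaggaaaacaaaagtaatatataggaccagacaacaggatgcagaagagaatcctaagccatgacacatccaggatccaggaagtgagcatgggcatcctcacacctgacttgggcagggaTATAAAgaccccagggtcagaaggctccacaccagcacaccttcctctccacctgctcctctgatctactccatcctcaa
Krtap8-1 chr16:89487903-89488202: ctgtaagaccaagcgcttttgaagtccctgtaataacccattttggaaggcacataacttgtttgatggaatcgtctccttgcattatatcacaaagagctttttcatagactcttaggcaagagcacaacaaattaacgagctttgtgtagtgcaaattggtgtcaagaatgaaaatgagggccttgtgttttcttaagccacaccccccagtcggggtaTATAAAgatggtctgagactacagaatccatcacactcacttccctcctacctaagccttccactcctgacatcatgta
The motif began 32, 30 and 29 bases before the start in these windows. It occurred on either strand in 31 of the 39 Krtap windows (79.5%), against 13.6% of 32851 windows of the same length. On the gene's own strand and between 40 and 20 bases before the start, it occurred in 23 of 39 Krtap windows (59.0%), against 1.99% of all windows, at a median of 31 bases (27 to 37). Neighbouring genes of a family may share promoter sequence by descent, so the windows are not independent of each other. By class, the motif stood at that place in 8 of 11 ultra-high sulfur, 6 of 11 high sulfur, 6 of 14 high glycine-tyrosine and 3 of 3 unclassed windows. Among the other hair genes it stood there for 4 of 9 hair shaft keratins and 5 of 8 inner root sheath genes.

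The hair keratins, which form the filaments that the keratin-associated proteins surround, were low in the same samples. Of 12 hair shaft keratins tested, 9 fell, 0 rose and 3 did not pass the limma test, with a median difference of -8.23, beside a median of 0.0070 over all tested probes and 10.5% of genes called lower. Of the 9, 4 (Krt34, Krt85, Krt86 and Krt87) were well above background on no imiquimod array and entered the fit through the vehicle arrays alone, and with all 6 arrays required 1 keratin was called. Krt33a read -7.01, -5.49 and -5.21 on the imiquimod arrays against 5.97, 7.76 and 1.51 on the vehicle arrays (difference -10.98 ± 1.56 SE, limma adjusted p = 0.00796). It was well above background on 1 imiquimod array only, so it too passed the filter through the vehicle arrays. Its difference therefore rests partly on imiquimod readings too dim to measure. Krt34 read -6.94, -7.56 and -7.61 on the imiquimod arrays against 4.51, 6.91 and 0.085 on the vehicle arrays, at least 549-fold lower (limma adjusted p = 0.00827). Neither gene's groups overlapped. Krt33b and Krt84 had higher means in imiquimod skin without passing the test (differences 2.39 and 1.21, limma adjusted p = 0.225 and 0.564), and the 2 probes of Krt33b differed in sign. With slide as a block, 1 hair shaft keratin was called, and 4 were called without imiquimod 1 or without vehicle 1, and 5 without imiquimod 2 or without imiquimod 3. The share of all tested probes called lower was 2.63% with slide as a block and 3.67% to 4.5% in these leave-outs. It was 9.13% with all 6 arrays required.

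The inner root sheath is the layer that moulds the growing shaft and is shed before the hair emerges. All 6 of its genes on the array fell, with a median difference of -8.27, beside 10.5% of all genes called lower. With slide as a block 4 were called, with all 6 arrays required 3, and without imiquimod 1, 2 or 3 or vehicle 1 the count was 5. In the same order, the shares of all tested probes called lower were 2.63%, 9.13% and 3.67% to 4.5%. Krt25 and Krt26 were well above background on no imiquimod array and entered the fit through the vehicle arrays alone. Krt71 read -5.08, -4.51 and -3.24 on the imiquimod arrays against 8.32, 8.80 and 6.06 on the vehicle arrays (difference -12.01 ± 0.81 SE, limma adjusted p = 0.0017). It was well above background on 2 imiquimod arrays, so it too needed the vehicle arrays to pass the filter, and its difference includes an unmeasured reading. Krt25 read -7.12, -7.03 and -5.52 on the imiquimod arrays against 6.56, 7.48 and 3.77 on the vehicle arrays, at least 2363-fold lower (limma adjusted p = 0.00204). For these genes vehicle 1 was above vehicle 3 by 2.26 and 2.79, beside a median of 4.33 over the Krtap probes.

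Among 14 regulators of hair differentiation, 6 fell and 8 did not pass, with a median difference of -1.44, beside 10.5% of all genes called lower. Gata3, a transcription factor of the inner root sheath lineage, read 0.66, 1.26 and 0.97 on the imiquimod arrays against 2.53, 2.49 and 2.37 on the vehicle arrays (difference -1.50 ± 0.17 SE, limma adjusted p = 0.00445). Lhx2, a transcription factor of follicle progenitors, read -1.09, 1.28 and 1.12 on the imiquimod arrays against 3.75, 3.66 and 2.93 on the vehicle arrays (difference -3.01 ± 0.66 SE, limma adjusted p = 0.0265). Hoxc13 and Foxn1, which activate hair keratin and Krtap genes, did not pass: their differences were -2.53 and -0.66 (limma adjusted p = 0.0526 and 0.578). Hoxc13 and Foxn1 were looked up for that role and not by the naming rule. The number of regulators called was 2 with slide as a block, 1 or 2 when imiquimod 1, 2 or 3 or vehicle 1 or 2 was left out, and 10 without vehicle 3. Of all tested probes, 2.63% were called lower with slide as a block, 3.67% to 11.3% in those leave-outs and 9.78% without vehicle 3.

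Of 7 other hair shaft proteins tested, 5 fell and 1, Tgm3, rose, beside 10.5% of all genes called lower and 13.1% called higher. Of the 5, Dsg4 and Gprc5d were well above background on no imiquimod array and entered the fit through the vehicle arrays alone. With all 6 arrays required, 3 were called lower. S100a3, a calcium-binding protein of the cuticle, read -2.80, -3.00 and -2.70 on the imiquimod arrays against 6.05, 7.62 and 2.17 on the vehicle arrays (difference -8.11 ± 1.31 SE, limma adjusted p = 0.0112). Crym read -3.66, -3.39 and -3.21 on the imiquimod arrays against 4.48, 5.99 and 0.70 on the vehicle arrays (difference -7.14 ± 1.27 SE, limma adjusted p = 0.0148). Tgm3, a transglutaminase that cross-links proteins in the epidermis as well as in hair, had a difference of 2.30 ± 0.42 (SE, limma adjusted p = 0.016). The number of these genes called lower was 0 with slide as a block, 1 without imiquimod 1, 2 or 3, and 0 without vehicle 1. The share of all tested probes called lower was 2.63% with slide as a block and 3.67% to 4.5% in these leave-outs. It was 9.13% with all 6 arrays required.

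Pigment cells of the growing follicle supply melanin to the shaft, and of 6 melanocyte genes tested 1 fell, Mitf, the transcription factor of the lineage, beside 10.5% of all genes. Mitf read -0.62, -0.78 and -0.12 on the imiquimod arrays against 1.04, 1.02 and 0.69 on the vehicle arrays (difference -1.42 ± 0.21 SE, limma adjusted p = 0.00857). Oca2, a melanosome transporter, read -4.65, -4.45 and -4.35 on the imiquimod arrays against -0.27, 0.82 and -4.50 on the vehicle arrays, so that vehicle 3 fell among the imiquimod samples (limma adjusted p = 0.136). Without vehicle 3, 6 melanocyte genes were called lower, beside 9.78% of all tested probes. With slide as a block 0 were called, beside 2.63%.

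The order of the vehicle samples seen at the Krtap probes recurred at the other hair genes and was not found at the markers of other skin cells. It held for 12 of 12 hair shaft keratins, 6 of 6 inner root sheath genes, 6 of 7 other hair shaft proteins, 11 of 14 regulators, 5 of 6 melanocyte genes and 5 of 10 genes of the outer root sheath and bulge. It held for 0 of 7 genes of the interfollicular epidermis, 0 of 7 imiquimod response genes, 0 of 6 sebaceous, 0 of 6 fibroblast, 0 of 6 adipocyte, 0 of 6 skeletal muscle and 0 of 4 leukocyte genes, against 24.2% of all probes. These lists are short and their genes vary together, so the counts describe these 3 samples.

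Markers of other cells moved with the treatment too, beside 13.1% of all genes called higher and 10.5% called lower. All 6 sebaceous gland genes tested fell, with a median difference of -5.57, and their summed linear signal was 11.8 to 15 in imiquimod skin and 57.7 to 88.9 in vehicle skin. All 7 imiquimod response genes, such as S100a8 and S100a9, rose, with summed signals of 1589 to 1868 in imiquimod skin and 12.4 to 89.8 in vehicle skin. Of 7 interfollicular genes, 3 rose and Krt2 fell, and the sums were 1883 to 2071 in imiquimod skin and 979 to 1291 in vehicle skin. Of 10 outer root sheath and bulge genes 5 fell, with sums of 294.7 to 321.1 in imiquimod skin and 436.2 to 605.6 in vehicle skin. Fibroblast genes rose in 3 of 6 cases (sums 997 to 1123 in imiquimod, 598 to 854 in vehicle) and leukocyte genes in 2 of 4 (19.3 to 22.3 in imiquimod, 5.73 to 12.7 in vehicle). Adipocyte genes fell in 1 of 6 cases (sums 111.7 to 164.9 in imiquimod, 134.4 to 239.3 in vehicle) and skeletal muscle genes in 0 of 6 (247.2 to 421.6 in imiquimod, 259.9 to 635.9 in vehicle). All listed genes on the array were well above background on at least 1 array. Among the lists of pigment and other skin cells, Krt2, the sebaceous gene Mc5r, the B cell gene Cd79a and the melanocyte genes Tyr and Gpr143 were so on no imiquimod array, as were the hair shaft genes Dsg4, Gprc5d and Tchhl1 and the keratins named above. The part of these cell types in the Krtap result was not tested.

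**Figure D4:**
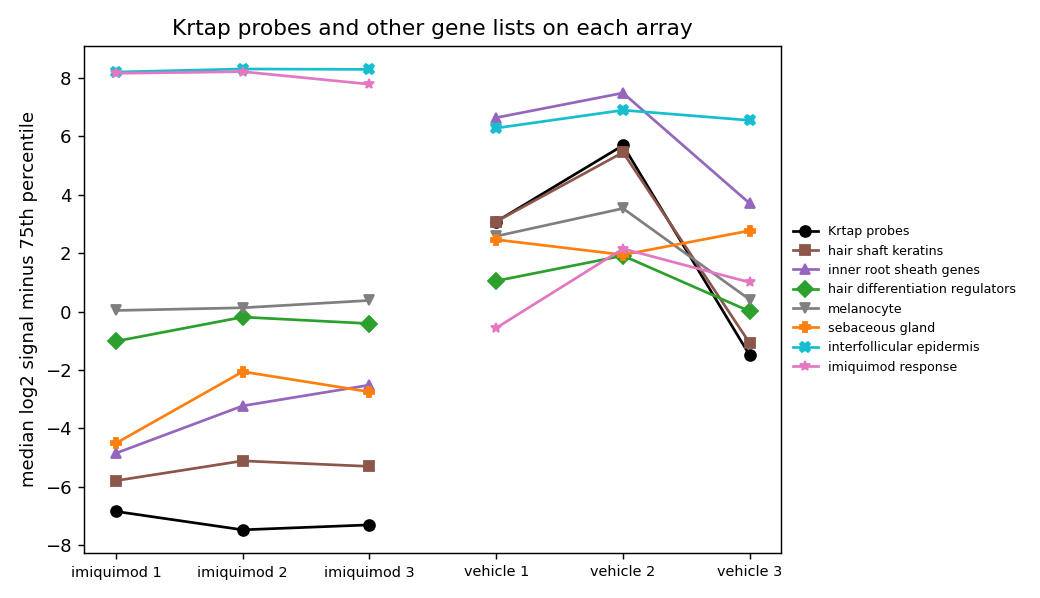
Median log2 signal minus the array's 75th percentile on each array (imiquimod arrays left, vehicle arrays right) for the Krtap probes and 7 other gene lists, 1 line per list, with the lines linking arrays only to guide the eye. The Krtap probes and the hair shaft keratins share the same shape, with vehicle 3 below vehicle 1 and 2, while the sebaceous gland and interfollicular lists lack it.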

How the data were processed

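Total RNA was labelled with Cy3 after linear amplification, per the labels' protocols. For each sample the authors deposited a scanner file, and for the series a table of values. Scanner files hold linear spot intensity, including a processed signal from Agilent Feature Extraction 10.7.3.1, per the file headers; version 9.1 is given in the submitters' processing notes. Values in the deposited table are log2, their normalization is not stated, and its column medians all lay at 7.05. It was used to assign the scanner files to samples and as an alternative.

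Control spots and 322 spots marked as non-uniform or population outliers were left out, and log2 processed signals were averaged over the spots of each probe, giving 41115 probes. Each array's 75th percentile was subtracted. Probes well above background on at least 3 of 6 arrays (27415) were fitted by lmFit and eBayes of limma 3.58.1 (R 4.3.3; two-sided, no covariates) with Benjamini-Hochberg adjustment at 0.05, a procedure tested on simulated data. Of the Krtap probes, 45 of 47 were named through a RefSeq accession and 1 changed its name. Each SE is from that fit, where eBayes draws the pooled variance of a probe towards that of all fitted probes. For list genes, the tested probe with the highest mean stands for the gene. The number of arrays limits the precision, and p-values measure only the spread between these samples.

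The members and lists were chosen with earlier results of these data known. Classes were to follow protein composition, but protein sequences were not used here, and classes follow the family number instead. The genes named in each class were, among probes well above background on all 6 arrays, up to 3 with the largest and 2 with the smallest difference; among probes well above background on no imiquimod array and on all vehicle arrays, the 3 with the largest bound; any whose sign opposed the family median or whose probes disagreed in sign (none); and the 2 genes of smallest p of each hair list. The 2 genes of smallest p were not named for the lists of other skin cells, which are given by counts. Other genes named were chosen after their values were seen. Alternatives were 18 settings of background correction, normalization, filter, variance model, blocks, grouping and arrays left out.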

Additional observations from a re-analysis of the deposited data

How the results depend on the processing

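The Krtap medians in this section are over the 41 fitted probes, for which the main fit gave -8.87. Under the grouping by the record each scanner file was filed under, every sign turned: 0 Krtap probes were lower and 32 higher in imiquimod, the Krtap median difference was 8.87, and the counts called lower were 0 hair shaft keratins, 0 inner root sheath genes, 0 regulators, 1 other hair shaft protein and 0 melanocyte genes. The differences became 10.98 for Krt33a, 11.21 for Krt34, 12.01 for Krt71, 12.50 for Krt25, 1.498 for Gata3, 3.01 for Lhx2, 8.11 for S100a3, 7.14 for Crym, 1.42 for Mitf and 3.17 for Oca2. With slide as a block, 2 Krtap probes, 1 hair shaft keratin, 4 inner root sheath genes, 2 regulators, 0 other hair shaft proteins and 0 melanocyte genes were called lower. Within slide 1, with 1 imiquimod array, the Krtap median was -8.47 over the 41 fitted probes, beside -8.31 over all 47. The Krtap median with slide as a block was also -8.47, since the other slide held no vehicle array. When probes had to be well above background on all 6 arrays, which left 8 Krtap probes in the fit, 4 of them, 1 hair shaft keratin, 3 inner root sheath genes and 3 other hair shaft proteins were called lower. Without a filter on dim probes, 3 regulators were called. Over the fits that each left out 1 array, the counts ran from 11 to 39 Krtap probes, 4 to 10 hair shaft keratins, 5 to 6 inner root sheath genes, 1 to 10 regulators, 0 to 6 other hair shaft proteins and 1 to 6 melanocyte genes, and the Krtap median from -10.74 to -7.30. Without both arrays marked for evaluation, vehicle 1 alone faced the imiquimod arrays, so the spread between vehicle samples was lost. The Krtap median was then -9.64. Deviations from the group means correlated at -0.07, 0.08 and 0.10 between same-numbered arrays, which cannot show whether the samples were paired. The fit with a replicate block called 26 Krtap probes and 2 regulators. The normexp background correction brought the Krtap median to -5.97, with 24 probes called. The other settings, which were the deposited value table, quantile normalization, 1 probe per gene and a robust variance trend, called between 28 and 34 Krtap probes. Shares of all fitted probes called lower were 9.72% in the main fit, 11.4% under the filing and 2.63% with slide as a block. They were 9.13% with all 6 arrays required, 4.55% without the filter and 3.67% to 11.3% with 1 array left out. With a replicate block the share was 5.8% and with normexp 9.08%. For the other settings it was 8.83% to 10.5%. The cause of these changes was not tested. Signal over background limits 33 of the 47 Krtap probes to a bound in imiquimod skin, and 2 more, well above background on no array, have no bound.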
